A study of Mus musculus with 4 samples.

Results

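Interferon-induced genes were followed across single CD4 T cells, as a list of 52 genes set by name. The matrices of both mice held 51 of them, of 32285 genes in all, and all 51 passed the filter on low counts in the comparisons of V gene, clonotype size and Foxp3 status. Mx1 was not among the genes of the matrices. The cells came from spleens of 2 B6.H2g7 donors, C57BL/6 mice that carry H2g7, the NOD haplotype of the major histocompatibility complex. The labels give the strain B6.NOD-(D17Mit21-D17Mit10)/LtJ and an age of 6 to 8 weeks, without saying whether this is the age of donors or hosts. After magnetic column purification, 5000000 CD4 T cells were transferred into NOD.Rag1null hosts, which make no T or B cells of their own, and live CD4+ TCRβ+ cells were sorted from 2 host spleens on day 14. Each host, called mouse 1 and mouse 2 here, gave 1 library of gene expression (10x 5′) and 1 of T cell receptors. All cells were thus transferred cells in the same kind of host with no untreated group, so each comparison sets classes of cells of a mouse against each other. The classes were the V gene of the receptor β chain (TRBV26, TRBV23 or neither), the number of kept cells with the same clonotype (1, 2-4, or 5 and more) and the presence or absence of a Foxp3 UMI.

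Interferons are cytokines that switch on a shared but graded set of genes. Type I interferons (α and β) signal through IFNAR1 and IFNAR2 to a transcription factor complex with STAT2 and IRF9, which binds the interferon-stimulated response element. Interferon γ, made by activated T cells, signals through IFNGR1 and IFNGR2 to genes with a gamma-activated site, among them Irf1. Ifit and Oas genes, which encode RNA-binding proteins and 2′-5′ oligoadenylate synthetases, are classic type I targets. Gbp and Irg genes encode large and small GTPases that attack vacuoles of intracellular microbes and respond strongly to interferon γ, but both kinds of interferon act on most of these genes. Foxp3 is the lineage factor of regulatory T cells.

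Cells were kept with 500 or more genes detected, no more than 10% of UMIs mitochondrial and exactly 1 TRB contig, which left 5993 cells of mouse 1 and 6332 of mouse 2 with medians of 5596 and 6219.5 UMIs. The libraries shared 58 of the barcodes of kept cells, and the counts of called members given below for each comparison were the same without them. Cd3e and Cd4 were present at 1542 and 1649 and at 375 and 394 CPM (counts scaled to 1000000 UMIs of the sum). Cd8a was at 0 in both mice, while the other CD8 marker, Cd8b1, was at 9.09 and 8.55 CPM. Of the 12 macrophage and myeloid markers, all were above 0 in each V gene class, at a summed 58.3 to 83.2 CPM. A class's CPM is a sum over its cells, so fewer expressing cells and less RNA per expressing cell cannot be told apart in it.

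RefSeq promoter windows of GRCm38.p6, from 250 bases before to 50 after a start site, were at hand for 39 of the 52 genes in 48 windows. The core of the interferon-stimulated response element was searched on both strands as GAAA, 2 bases of any kind, then GAAA, which reads TTTC, 2 bases, TTTC on the other strand. It occurred in 24 of the 48 windows and in 3.44% of all 32851 windows. By gene, it was found in 7 of 7 Gbp and Irg genes with a window, 3 of 6 Ifit and Oas genes and 5 of 10 other antiviral genes. It was in 4 of 4 sensor and Ifi200 genes and none of the 3 antigen processing genes. Of all genes with a window, 3.99% had it. TTCNNNGAA, the gamma-activated site, which reads the same on both strands, occurred in 11 of the 48 windows and in 8.3% of all. It was found in 4 of 7 Gbp and Irg genes, 1 of 6 Ifit and Oas genes and 4 of 10 other antiviral genes. It also occurred in 1 of 3 antigen processing genes and 1 of 4 transcription factor genes, and in no gene of the remaining lists. Of all genes with a window, 9.55% had it. The stretches below, 5′ to 3′ on each gene's strand, all lie upstream of the start. They are shown for Isg15, Ifit1 and Ifit3 as type I genes, for Gbp3, Igtp and Irgm2 as GTPase genes, and for Irf1 as the classic gamma-activated gene. Capitals mark motif matches, which run together where they overlap.
Isg15 (chr4:156200865-156200906, minus strand): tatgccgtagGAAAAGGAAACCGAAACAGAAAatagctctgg
Ifit1 (chr19:34640775-34640823, plus strand): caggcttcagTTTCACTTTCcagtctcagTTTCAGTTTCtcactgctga
Ifit3 (chr19:34583363-34583426, plus strand): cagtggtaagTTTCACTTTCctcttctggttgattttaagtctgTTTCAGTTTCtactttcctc
Gbp3 (chr3:142559989-142560024, plus strand): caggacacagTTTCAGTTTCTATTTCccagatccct
Igtp (chr11:58199501-58199541, plus strand): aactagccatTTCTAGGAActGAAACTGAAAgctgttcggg
Irgm2 (chr11:58214892-58214932, plus strand): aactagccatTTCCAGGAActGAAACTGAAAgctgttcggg
Irf1 (chr11:53769914-53769942, plus strand): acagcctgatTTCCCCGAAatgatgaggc
Isg15 carried 3 overlapping copies of the response element core and no TTCNNNGAA, and Irf1 carried TTCNNNGAA alone. Igtp and Irgm2 had both motifs side by side. Their stretches were identical at 40 of 41 bases and differed by T14C, counted from the first printed base of Igtp. In the GENCODE M21 annotation of GRCm38 the model of Irgm2 (chr11:58199618-58222782) also overlaps that of Igtp (chr11:58199556-58207591) on the same strand, so the split of reads between these neighbours is uncertain. A match is a description of letters and not of binding.

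Foxp3+ cells held higher levels of most interferon-induced genes than Foxp3- cells of the same mice. There were 919 Foxp3+ cells (15.3% of kept cells) in mouse 1 and 1146 (18.1%) in mouse 2, with medians of 6338 and 6597.5 UMIs against 5522 and 6166 in Foxp3- cells. Of the 51 members, 37 were called higher and 5 lower in Foxp3+ cells (edgeR quasi-likelihood test on UMI sums with the mouse as a block, Benjamini-Hochberg adjusted p under 0.05), at a median log2 difference of 0.53. Over all 13069 tested genes, 22.3% were called higher and 20.5% lower, at a median of -0.01. This fit had 1 residual degree of freedom and infinite prior degrees of freedom, so that a gene's own variation between the mice had no weight in its p. Without the block 31 members were called higher and 4 lower, and the same numbers came from DESeq2. The shares of all genes in these fits are not given here, so these counts lack a background. The summed CPM of 7 regulatory T cell markers was 4101 and 4463 in Foxp3+ cells and 828 and 832 in Foxp3- cells. Foxp3 is among these 7 and has no UMI in Foxp3- cells by definition, so part of this difference was fixed in advance. Foxp3 itself defines the classes and was not tested, and cells whose Foxp3 transcripts were missed are in the Foxp3- class. The summed CPM of macrophage and myeloid markers was 36.9 and 42.7 in Foxp3+ and 70.6 and 82.1 in Foxp3- cells. Without cells holding a UMI of C1qa, C1qb, C1qc, Csf1r or Adgre1 the same 42 members were called in the same direction. Cells with only other myeloid markers of the list, such as Cd68 and Hmox1, stayed in that fit, and its share of all genes is not given here. The 7 B cell markers summed to 547 and 600 CPM against 75.7 and 87.1, the 5 NK cell markers to 13.9 and 17.0 against 63.6 and 61.1, and the 5 erythroid markers to 6.16 and 167 against 8.07 and 36.0. The 2 CD8 markers summed to 14.3 and 18.7 CPM against 7.92 and 5.95. The part of these markers in the result was not tested.

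The Gbp and Irg GTPase genes rose together in Foxp3+ cells, with 9 of 11 called higher, none lower and a median log2 difference of 0.84. Iigp1, an immunity-related GTPase of the resistance to Toxoplasma, stood at 163 and 187 CPM in Foxp3+ cells of mice 1 and 2 and at 59.9 and 54.2 in Foxp3- cells (log2 difference 1.62, SE 0.06). Gbp3, a guanylate-binding protein, stood at 89.0 and 94.8 against 36.4 and 30.4 CPM (1.48, SE 0.07). In both genes the Foxp3+ sums of each mouse lay above both Foxp3- sums, and 62.6% of all tested genes had no overlap between the classes in one or the other direction. Igtp, which encodes the regulatory GTPase Irgm3, was at 263 and 297 against 133 and 124 CPM (1.13, SE 0.06), and Gbp7 at 182 and 202 against 87.6 and 84.6 (1.16, SE 0.06). Smaller rises were found for Gbp6 (1.05), Irgm2 (0.84), Gbp5 (0.81), Gbp4 (0.73) and Irgm1 (0.28). Gbp2 and Gbp9 were not called, at log2 differences of 0.13 (SE 0.06) and 0.07 (SE 0.06). The response element core occurred upstream of the uncalled Gbp2 as well.

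Antiviral genes outside the Ifit and Oas families also rose in Foxp3+ cells, with 12 of 14 tested genes called higher and none lower (median 0.66). Isg20, a 3′ to 5′ exonuclease for RNA, was at 168 and 156 CPM in Foxp3+ cells and at 56.5 and 58.7 in Foxp3- cells (1.50, SE 0.06). Eif2ak2, the double-stranded RNA-activated kinase PKR, was at 69.1 and 71.1 against 32.2 and 33.4 CPM (1.10, SE 0.07). Ifi27l2a, a small mitochondrial and membrane protein gene of this list, was at 2230 and 2552 against 1194 and 1295 CPM (0.94, SE 0.05). The ubiquitin-like modifier Isg15 was at 120 and 121 against 72.5 and 75.7 CPM (0.71, SE 0.06), and the tetherin gene Bst2 at 146 and 149 against 103 and 99.6 CPM (0.55, SE 0.06). None of these 5 genes overlapped between the classes, and neither did 62.6% of all tested genes, counted in either direction. Rsad2, which encodes viperin, and Ifi35 were not called.

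The Ifit and Oas genes did not move as one in Foxp3+ cells. Of these 7 genes 4 were called higher and 1 lower, at a median of 0.30. Ifit1 was at 17.6 and 21.9 CPM in Foxp3+ cells and at 10.6 and 12.4 in Foxp3- cells (0.78, SE 0.12). Oasl2, an Oas-like gene, went the other way, with 3.36 and 3.93 against 6.05 and 9.90 CPM (-1.13, SE 0.21). Ifit3 was at 4.48 and 6.12 against 4.43 and 7.35 CPM, where the classes overlapped, and it was not called (-0.15, SE 0.20). All 7 genes were thinly counted, with 34 to 663 UMIs per gene in mouse 1 and 57 to 774 in mouse 2. Within clonotypes of 1 cell, a restriction chosen after the data were seen, 9 of 11 Gbp and Irg genes were called higher and none lower (median 0.87). Of the Ifit and Oas genes none was called higher and 3 were called lower, namely Oasl2, Ifit3 and Oas3 (median -0.42). Over all members that fit called 31 higher and 7 lower, beside 19.5% and 17.6% of all tested genes.

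Schlafen genes, which encode proteins tied to T cell quiescence and to cleavage of transfer RNA, split within one family. Slfn8 rose in Foxp3+ cells, from 28.5 and 32.8 to 71.2 and 85.9 CPM (1.36, SE 0.07). Slfn1 fell from 158 and 164 to 83.3 and 102 CPM (-0.79, SE 0.06), and Slfn2 from 465 and 481 to 357 and 395 CPM (-0.33, SE 0.05). Slfn5 fell as well (-0.39, SE 0.09), but not within every V gene class. In TRBV26 cells it was at 22.2 and 22.2 CPM in Foxp3+ and 33.0 and 45.0 in Foxp3- cells. In cells with neither V gene it was at 22.9 and 29.1 against 21.6 and 30.8 CPM. The part of the V gene classes in this fall was not tested. In each of the 4 genes the sums of both mice over all V gene classes lay on the same side without overlap. Of all tested genes 62.6% had no overlap, in either direction. Among sensors of nucleic acids, Ifi206 (0.82), Ifi213 (0.73) and Dhx58 (0.49) rose, whereas Ifih1, the RNA sensor MDA5, fell from 52.8 and 51.2 to 32.5 and 39.5 CPM (-0.52, SE 0.08). Of the transcription factors, Stat2 (0.56, SE 0.08), Irf9 (0.41) and Irf1 (0.22, SE 0.05) rose and Irf7 was not called (0.08, SE 0.06). Tap1, a peptide transporter subunit, rose from 241 and 233 to 336 and 351 CPM (0.54, SE 0.05), while the immunoproteasome subunit gene Psmb8 was at 1032 and 1093 in Foxp3+ and 1125 and 1054 CPM in Foxp3- cells and was not called (-0.03, SE 0.05). Tap1, Psmb8 and Psmb9 lie in the major histocompatibility region, where the donors carry the H2g7 haplotype and the reads were aligned to a C57BL/6 reference. All 3 genes of the Parp and Dtx3l list were higher, at 0.43 to 0.53.

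**Figure D1:**
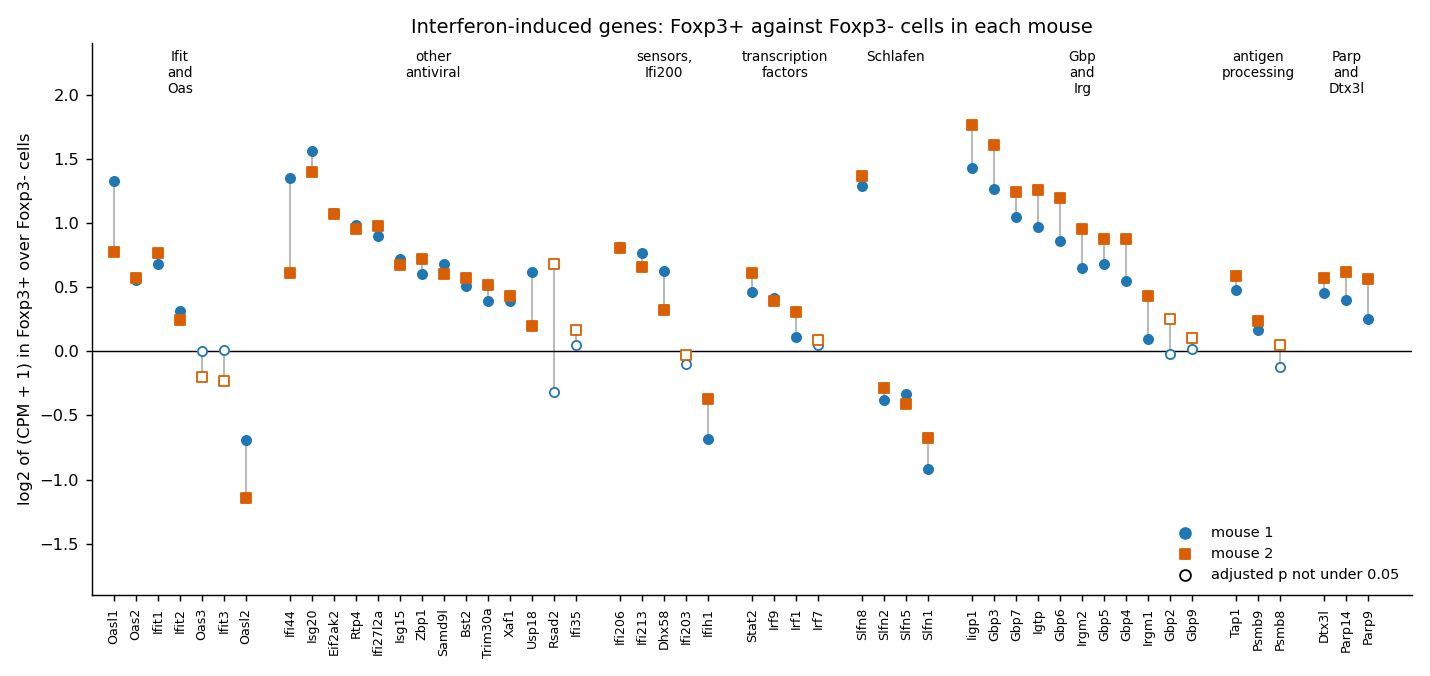
The log2 ratio of CPM (with 1 added) in Foxp3+ over Foxp3- cells is plotted for each of the 51 members in mouse 1 (circles) and mouse 2 (squares), ordered by list, with filled symbols for genes called by edgeR. Iigp1 and Gbp3 stand highest among the GTPase genes in both mice, and Oasl2 and Slfn1 lie below 0 in both.

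Summed over all their cells, large clonotypes held lower levels of many interferon-induced genes, but most of these calls were not made when each clonotype gave 1 cell. Clonotypes of 5 or more cells made up 2078 and 2265 cells, clonotypes of 2-4 cells 1520 and 1482, and clonotypes of 1 cell 2395 and 2585. Against clonotypes of 1 cell, 21 of 51 members were called lower and 5 higher in clonotypes of 5 or more (edgeR, adjusted p under 0.05), at a median log2 difference of -0.23. Of all 12739 tested genes 13.5% were called lower and 14.0% higher, at a median within 0.01 of 0. With 1 cell per clonotype, an alternative chosen after the data were seen, the largest class held 140 and 113 cells, and 5 of 48 tested members were called lower and none higher (median -0.09), beside 2.96% and 3.39% of all genes. The 5 were Slfn5 (-1.01, SE 0.22), Slfn1 (-0.62, SE 0.11), Igtp (-0.56, SE 0.10), Gbp6 (-0.68, SE 0.15) and Usp18 (-1.36, SE 0.34), all of them also called lower over all cells. In that fit the mice differed in the lists' sums. In mouse 2 the Ifit and Oas sum was 93.4 CPM in the largest class against 69.8 at 1 cell, and in mouse 1 it was 32.3 against 68.8. The sum of the other antiviral genes was likewise higher in mouse 2 (2928 against 2569 CPM) and lower in mouse 1 (1936 against 2468), while the Gbp and Irg sum was lower in both, at 778 and 908 against 979 and 974 CPM. Without the block 14 members were called lower and 1 higher over all cells. With the V class as a covariate 9 were lower and 5 higher, and Iigp1 (-0.50) and Ifi27l2a (-0.35) were not called. The shares of all genes in the fits without the block and with this covariate are not given here, so these counts lack a background. The residual degrees of freedom were 2 and the prior ones 6.77.

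All 4 Schlafen genes fell in large clonotypes over all cells. Slfn5 was at 38.5 and 46.7 CPM in clonotypes of 1 cell, at 29.5 and 37.5 in those of 2-4 and at 13.2 and 18.4 in those of 5 or more (log2 difference of the largest class against 1 cell -1.41, SE 0.08, edgeR adjusted p = 7.79e-06). Slfn1 went from 182 and 182 through 145 and 153 to 104 and 111 CPM (-0.74, SE 0.05, edgeR adjusted p = 1.64e-05). These values stepped down in both mice at each size. Slfn8 (-0.76) and Slfn2 (-0.26) fell as well, but with 1 cell per clonotype they were not called (-0.27, SE 0.18, and -0.04, SE 0.10). Ifi27l2a followed another course, with 1615 and 1759 CPM at 1 cell, 1621 and 1903 at 2-4 cells and 978 and 1042 at 5 or more (-0.71, SE 0.05, edgeR adjusted p = 1.64e-05), with the largest class lowest. With 1 cell per clonotype it was not called (-0.09, SE 0.09).

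Of the Gbp and Irg list 5 genes fell and 1 rose in clonotypes of 5 or more (median -0.08). The 5 were Iigp1 (-0.85, SE 0.08), Irgm2 (-0.69, SE 0.10), Igtp (-0.69, SE 0.05), Gbp6 (-0.37, SE 0.08) and Irgm1 (-0.35, SE 0.05), and Gbp7 was called higher (0.17, SE 0.05). Iigp1 was at 98.5 and 90.5 CPM in clonotypes of 1 cell and at 50.6 and 52.5 in those of 5 or more, and it was not called with 1 cell per clonotype (-0.23, SE 0.14). Gbp7 turned direction among cells with neither TRBV26 nor TRBV23 (-0.14). Gbp2 (-0.08, SE 0.05) and Gbp4 (-0.05, SE 0.06) were not called. The Ifit and Oas list had 3 genes lower and none higher (median -0.71). They were Oasl2, at 9.10 and 11.1 against 2.49 and 4.32 CPM (-1.56, SE 0.22, edgeR adjusted p = 0.00117), Oas3 (-0.76) and the very thinly counted Oas2. Ifit1 (-0.71, SE 0.25) and Ifit3 (-0.68, SE 0.23) missed the threshold at edgeR adjusted p of 0.0685 and 0.0538.

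Among the other antiviral genes 6 of 14 fell and none rose. Usp18, the protease that removes Isg15 from proteins and damps type I signalling, was at 20.1 and 19.7 CPM in clonotypes of 1 cell and at 6.46 and 8.44 in those of 5 or more (-1.39, SE 0.15). Rtp4 (-0.59), Isg20 (-0.26) and Bst2 (-0.25, SE 0.06) fell, and Isg15 was not called (-0.24, SE 0.11). Irf7 (-0.26, SE 0.07) and Irf9 (-0.22) fell and Stat2 was not called (-0.23, SE 0.08). In the opposite direction, Irf1 rose from 299 and 284 through 336 and 313 to 386 and 389 CPM (0.44, SE 0.05, edgeR adjusted p = 0.000219), but was not called with 1 cell per clonotype (0.16, SE 0.09). Psmb8 (0.23, SE 0.04), Psmb9 (0.15, SE 0.04) and Ifih1 (0.28, SE 0.07) also rose, and Tap1 was not called (0.11, SE 0.05).

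The composition of the classes moved with clonotype size. Foxp3+ cells were 16.4% and 19.8% of clonotypes of 1 cell, 18.9% and 28.6% of those of 2-4, and 11.5% and 9.23% of those of 5 or more. TRBV26 cells were 47.6% and 45.0% of clonotypes of 1 cell and 14.3% and 10.4% of those of 5 or more. The summed CPM of the macrophage and myeloid markers was 51.8 and 42.1 in clonotypes of 1 cell and 84.5 and 119 in those of 5 or more. The 5 NK cell markers, mostly the perforin gene Prf1, summed to 22.1 and 22.0 CPM in clonotypes of 1 cell and to 102 and 106 in those of 5 or more, and the B cell markers, mostly Ighm, to 188 and 219 against 120 and 103. The part of the NK and B cell markers in the result was not tested. Among cells without a Foxp3 UMI 24 members were called lower and 7 higher, beside 14.9% and 15.5% of all genes. Among cells with neither V gene 32 were lower and 4 higher, beside 15.0% and 13.6%. Without cells holding a UMI of C1qa, C1qb, C1qc, Csf1r or Adgre1 the count of called members was 27. Of these, 26 were the same genes in the same direction. Cells with only other myeloid markers stayed in. Without the 5 largest clonotypes of each mouse 21 were lower and 5 higher, and 24 of these 26 calls were shared with those over all clonotypes. The shares of all genes in the fits without macrophage transcripts and without the largest clonotypes are not given here.

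**Figure D2:**
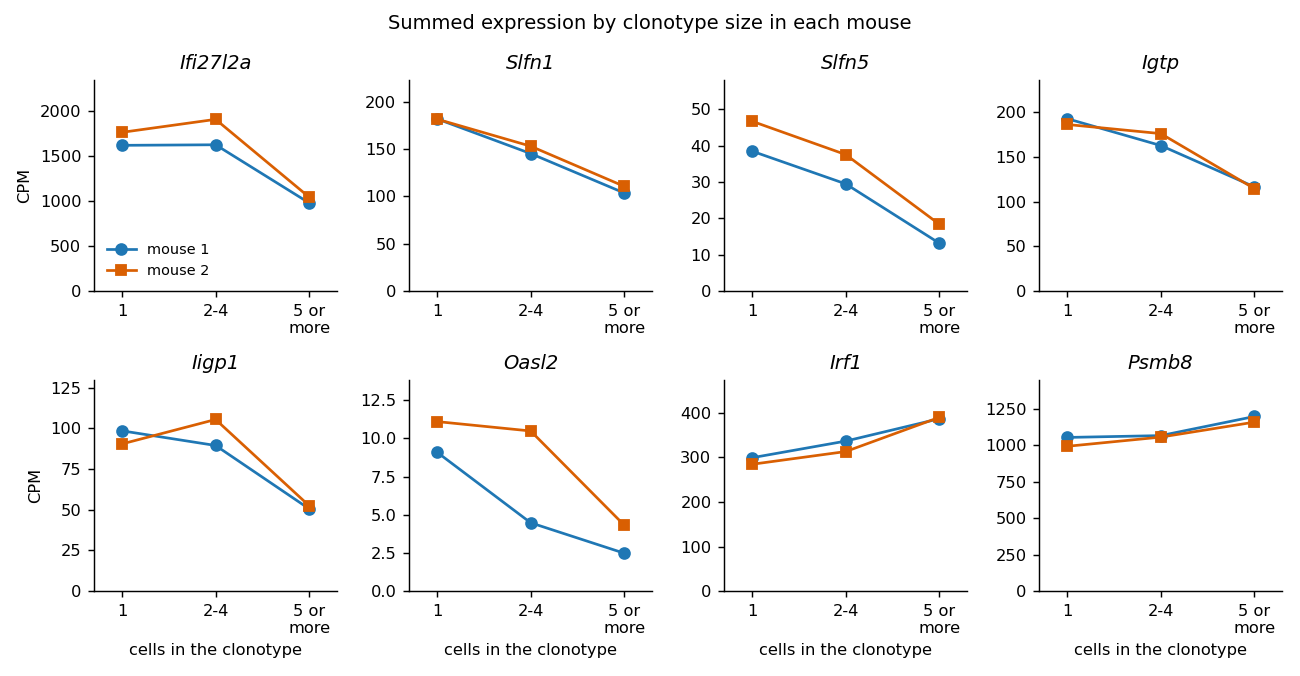
CPM of 8 members is plotted against clonotype size (1, 2-4 and 5 or more cells), with 1 line per mouse and each axis starting at 0. Slfn1 and Slfn5 step down at each size, Ifi27l2a, Iigp1 and Igtp are lowest at 5 or more, and Irf1 and Psmb8 are highest there.

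Between clonotypes of 2-4 cells and those of 1 cell 2 members were called, Slfn5 (-0.36, SE 0.08) and Slfn1 (-0.30, SE 0.05), both lower, at edgeR adjusted p of 0.0394 and 0.018. None of the 51 members was called higher. Of all tested genes 1.63% were called lower and 1.7% higher. Neither gene was called with 1 cell per clonotype, where 9 of 48 members had an unadjusted p under 0.05, nor without the block or with DESeq2, where 7 and 5 members had an unadjusted p under 0.05. The other members ranged from -0.80 for Oas2 to 0.40 for Gbp3.

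TRBV26 encodes Vβ3, and the study is about the deletion of Vβ3 CD4 T cells by an endogenous mammary tumour virus, whose superantigens bind certain Vβ chains. Differences between the V gene classes in the interferon-induced genes were small over all cells. Of the kept cells, 2084 and 1960 carried TRBV26, 959 and 725 carried TRBV23, and 2950 and 3647 carried neither. Against cells with neither, 6 members were called higher and 7 lower in TRBV26 cells (edgeR, adjusted p under 0.05), at a median log2 difference of -0.02. Of all 12628 tested genes 8.73% were called higher and 10.5% lower, at a median within 0.01 of 0. In TRBV23 cells, compared with the same cells with neither, 5 members were higher and 8 lower (median -0.06), beside 6.52% and 6.67% of all genes. Without the block only 4 and 2 members were called in the 2 comparisons, and 5 in each with DESeq2. The shares of all genes in these fits are not given here, so these counts lack a background.

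Schlafen genes led the increases in TRBV26 cells. Slfn2 was at 528 and 520 CPM in TRBV26 cells, at 519 and 566 in TRBV23 cells and at 369 and 416 in cells with neither (TRBV26 against neither 0.42, SE 0.05, edgeR adjusted p = 0.00015). Slfn5 (0.48, SE 0.07) and Slfn1 (0.38, SE 0.05) rose likewise, and Slfn8 was not called. Within clonotypes of 1 cell Slfn5 and Slfn1 were not called, at 0.03 (SE 0.09) and 0.05 (SE 0.06). Without Foxp3+ cells there, Slfn1 was called lower (-0.22, SE 0.07, edgeR adjusted p = 0.028) and Slfn5 was at -0.14 (SE 0.10, not called). Ifi27l2a was at 1569 and 1782 CPM in TRBV26 cells, at 1534 and 1793 in TRBV23 cells and at 1221 and 1389 in cells with neither (0.37, SE 0.04, edgeR adjusted p = 3.67e-05). In each mouse the TRBV26 and TRBV23 sums of Slfn2 and Ifi27l2a lay above those of cells with neither. Within clonotypes of 1 cell Ifi27l2a was at 1644 and 1748 CPM in TRBV26 cells and at 1549 and 1744 in cells with neither, and was not called (0.03, SE 0.05). Ifih1 (0.30, SE 0.08) and Gbp9 (0.22, SE 0.06) were the other members called higher.

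The members called lower in TRBV26 cells came from several lists. Bst2 was at 99.6 and 93.2 against 120 and 121 CPM (-0.32, SE 0.05), Usp18 at 9.87 and 11.4 against 15.4 and 17.5 (-0.63, SE 0.10) and Gbp3 at 42.8 and 37.6 against 50.9 and 47.0 (-0.28, SE 0.07). Ifi206 (-0.35), Ifi213 (-0.33), Gbp7 (-0.24) and Oas2, with under 2 CPM in every V gene class, completed the 7. Many type I genes and transcription factors were not called here, among them Isg15 (0.08, SE 0.06), Ifit1 (0.00, SE 0.11), Ifit3 (-0.44, SE 0.18), Oasl2 (-0.12, SE 0.19), Irf7 (-0.02, SE 0.05), Stat2 (-0.02, SE 0.08) and Irf1 (-0.13, SE 0.04). Of the GTPase and antigen processing genes, Igtp (-0.11, SE 0.05), Iigp1 (0.11, SE 0.07), Irgm1 (0.16, SE 0.06), Gbp2 (-0.19, SE 0.07), Gbp4 (-0.06, SE 0.05), Tap1 (0.01, SE 0.04) and Psmb8 (-0.08, SE 0.04) were not called either. In TRBV23 cells the same 3 Schlafen genes, Ifi27l2a (0.36, SE 0.04) and Irgm1 (0.25, SE 0.06) were called higher. Ifit3 (-0.96, SE 0.25), Usp18 (-0.66), Ifi213 (-0.42), Ifi206 (-0.41), Gbp3 (-0.31), Gbp7 (-0.27), Bst2 (-0.26) and Igtp (-0.20, SE 0.06) were lower there.

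No member was called between TRBV26 and TRBV23 cells, either with edgeR or with DESeq2. In that comparison 0.00792% of all genes were called higher and 0.0158% lower, and 1 member, Ifit1 (0.36, SE 0.16), had an unadjusted p under 0.05. The log2 differences were 0.09 (SE 0.06) for Igtp, -0.12 (SE 0.09) for Iigp1, 0.00 (SE 0.04) for Ifi27l2a and -0.06 (SE 0.05) for Slfn2.

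The V gene classes differed in clonotype size and in Foxp3 status. The NK cell markers summed to 28.9 and 30.1 CPM in TRBV26 cells, 30.9 and 25.5 in TRBV23 cells and 78.2 and 68.3 in cells with neither, and the B cell markers to 115 and 141, 100.4 and 146, and 213 and 226. The erythroid markers reached 334 CPM in TRBV23 cells and 67.7 in TRBV26 cells of mouse 2, and lay at 4.64 to 10.6 CPM in the other 4 sums. The part of these 3 marker lists in the results was not tested. Of cells with neither V gene 55.1% and 53.1% were in clonotypes of 5 or more, against 14.3% and 12.0% of TRBV26 cells. Within clonotypes of 1 cell, 37.7% and 36.1% of cells with neither V gene were Foxp3+, against 6.32% and 9.81% of TRBV26 cells. In clonotypes of 5 or more the order was the opposite, with 9.10% and 7.49% against 18.1% and 18.3%. When the comparison was limited to clonotypes of 1 cell, 28 members were called lower in TRBV26 cells and 2 higher (median -0.36), beside 14.0% and 12.4% of all genes called lower and higher. Of these, 8 of 11 Gbp and Irg genes and 6 of 7 Ifit and Oas genes were lower. Igtp was at 149 and 146 CPM in TRBV26 cells of clonotypes of 1 cell and at 262 and 233 in those with neither (-0.75, SE 0.06, edgeR adjusted p = 5.37e-09). Bst2 was at 98.8 and 84.6 against 157 and 146 CPM (-0.74, SE 0.07), and Usp18 at 13.0 and 10.7 against 32.9 and 30.1 (-1.42, SE 0.135). Slfn2 (0.45, SE 0.06) and Ifih1 (0.59, SE 0.11) were the members called higher.

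Restricting this further to cells of clonotypes of 1 cell without a Foxp3 UMI, an alternative chosen after the data were seen, left 19 members lower and 6 higher (median -0.19), beside 15.2% and 13.7% of all genes. Of the lists, 5 of 7 Ifit and Oas genes were lower (median -1.05), and 4 of 11 Gbp and Irg genes were lower with 1 higher (median -0.13). Igtp (-0.73, SE 0.07), Bst2 (-0.89, SE 0.08), Usp18 (-1.64, SE 0.14), Ifit3 (-1.53, SE 0.30) and Ifit1 (-0.70, SE 0.16) were among those called lower. Iigp1, which was lower in all clonotypes of 1 cell (-0.54, SE 0.08), was no longer called (-0.14, SE 0.11). Among Foxp3+ cells alone, of which 177 and 254 carried TRBV26, none of the 47 members tested was called by edgeR in either direction, 5 had an unadjusted p under 0.05, and 0.659% and 0.412% of all genes were called higher and lower. There the log2 difference was 0.05 (SE 0.10) for Igtp, -0.01 (SE 0.10) for Iigp1 and -0.02 (SE 0.08) for Ifi27l2a. Ifi27l2a was at 2325 and 2413 CPM in Foxp3+ TRBV26 cells and at 2272 and 2610 in Foxp3+ cells with neither, whereas in Foxp3- cells it was at 1472 and 1654 against 872 and 1019.

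**Figure D3:**
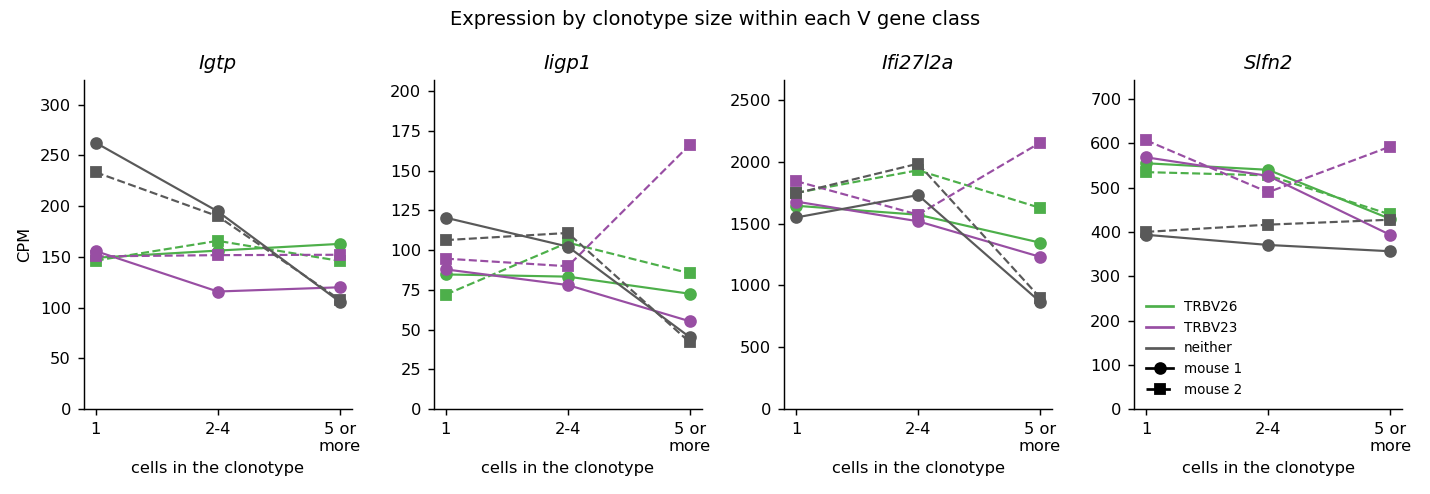
CPM of 4 members is plotted against clonotype size within TRBV26 (green), TRBV23 (purple) and neither (grey), with solid lines for mouse 1 and dashed lines for mouse 2. Igtp and Iigp1 fall steeply with size in cells with neither V gene and stay flatter in TRBV26 cells, and the point of TRBV23 in clonotypes of 5 or more of mouse 2 rests on 94 cells of 10 clonotypes.

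A test of the interaction, which takes the TRBV26 difference in clonotypes of 5 or more minus that in clonotypes of 1 cell over 18 sums, called 18 of 50 members and all of them in the same direction (edgeR, median 0.45). Over all 11394 genes 6.26% were called in that direction and 5.37% in the other, at a median of -0.02. TRBV26 cells of large clonotypes were 298 cells of 35 clonotypes in mouse 1 and 235 of 23 in mouse 2, where 1 clonotype held 59 cells. The interaction was not fitted with 1 cell per clonotype. The 18 held 7 of 11 Gbp and Irg genes (median 0.84), 6 of 13 other antiviral genes and 1 of 7 Ifit and Oas genes. The thinly counted Ifit and Oas genes had a median of 1.31, with 7 of 7 in that direction and 3 with an unadjusted p under 0.05. Igtp was at 163 and 146 CPM in TRBV26 cells of large clonotypes and at 106 and 108 in cells with neither, the opposite order to that in clonotypes of 1 cell (interaction 1.31, SE 0.14, edgeR adjusted p = 1.02e-05). Iigp1 was at 72.6 and 85.4 against 45.3 and 42.0 CPM in large clonotypes and at 84.7 and 72.1 against 120 and 106 in clonotypes of 1 cell (1.41, SE 0.28, edgeR adjusted p = 0.00302). Irgm2 followed with 0.97 (SE 0.20, edgeR adjusted p = 0.00372), but with cells thinned to 2000 UMIs it was not called (0.79, edgeR adjusted p = 0.12). Without the block 11 members were called, all in the same direction, but the share of all genes in that fit is not given here. In cells without a Foxp3 UMI, an alternative chosen after the data were seen, 7 members were called in this direction and none in the other, beside 4.9% and 4.69% of all genes. Igtp (1.10, SE 0.17) and Bst2 (1.00, SE 0.16) were among the 7, and Iigp1 was not (0.54, edgeR adjusted p = 0.16).

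**Figure D4:**
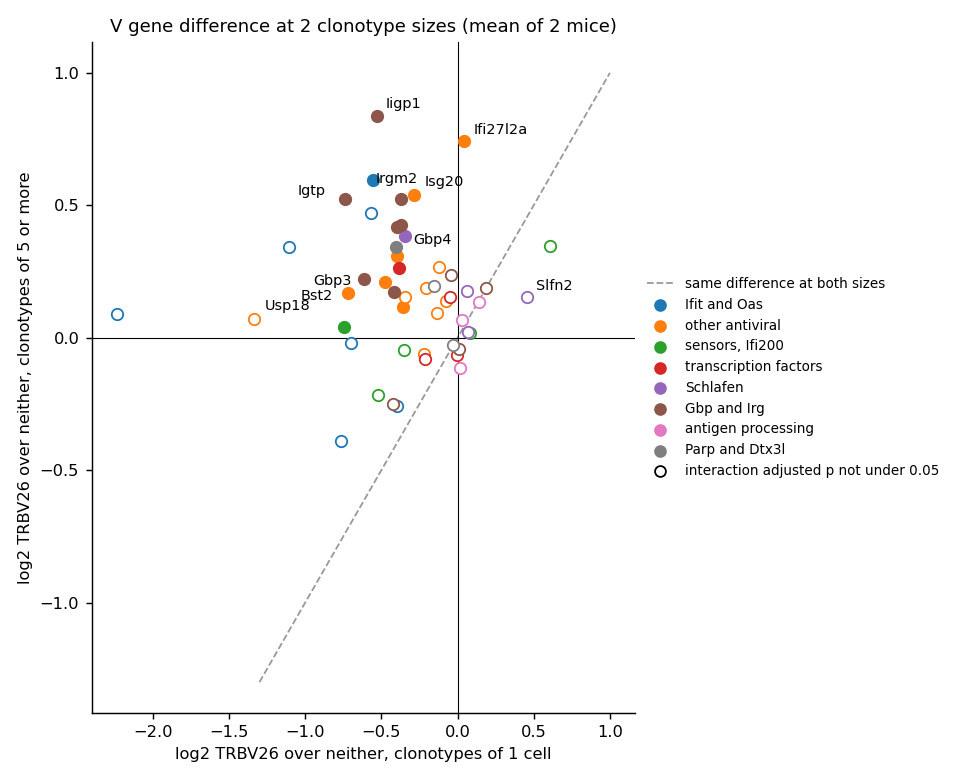
The log2 ratio of TRBV26 over neither in clonotypes of 5 or more is plotted against that in clonotypes of 1 cell for 50 members, as the mean of both mice, coloured by list and filled where the interaction was called. All 18 filled points lie above the dashed line of equal differences, with Iigp1 and Igtp farthest from it among the GTPase genes named.

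The summed levels of the GTPase and type I lists were set side by side in each class. The 11 Gbp and Irg genes together were at 1349 and 1536 CPM in Foxp3+ cells and at 817 and 768 in Foxp3- cells. The 7 Ifit and Oas genes were at 64.6 and 69.5 CPM in Foxp3+ cells and at 51.8 and 63.3 in Foxp3- cells. The log2 ratio of the Ifit and Oas sum to the Gbp and Irg sum was -4.38 and -4.47 in Foxp3+ cells and -3.98 and -3.60 in Foxp3- cells, lower in Foxp3+ cells of both mice. Within V gene classes this did not hold throughout. In cells with neither V gene the ratio was -4.59 and -4.50 in Foxp3+ and -3.83 and -3.40 in Foxp3- cells. In TRBV26 cells it was higher in Foxp3+ cells of mouse 1 (-3.96 against -4.18) and lower in mouse 2 (-4.48 against -3.74). In TRBV23 cells the values were -4.01 against -3.98 in mouse 1 and -4.18 against -4.37 in mouse 2. The Ifit and Oas sum itself was higher in Foxp3+ cells of TRBV23 (65.0 and 79.9 against 50.4 and 42.5 CPM) and TRBV26 (90.3 and 69.3 against 46.9 and 57.0), and was 57.1 and 68.4 against 56.0 and 71.0 in cells with neither. By clonotype size, the Gbp and Irg sum was 979 and 974 CPM at 1 cell, 953 and 1031 at 2-4 and 820 and 788 at 5 or more, and the Ifit and Oas sum was 68.8 and 69.8, 47.9 and 77.6, and 42.8 and 48.7 CPM. At 2-4 cells the mice thus differed in the Ifit and Oas sum by more than the classes did. Across V gene classes the Gbp and Irg sum ranged from 828 to 966 CPM and the log2 ratio from -4.33 to -3.73, with the order of classes differing between the mice. A sum over chosen genes carries no test here.

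**Figure D5:**
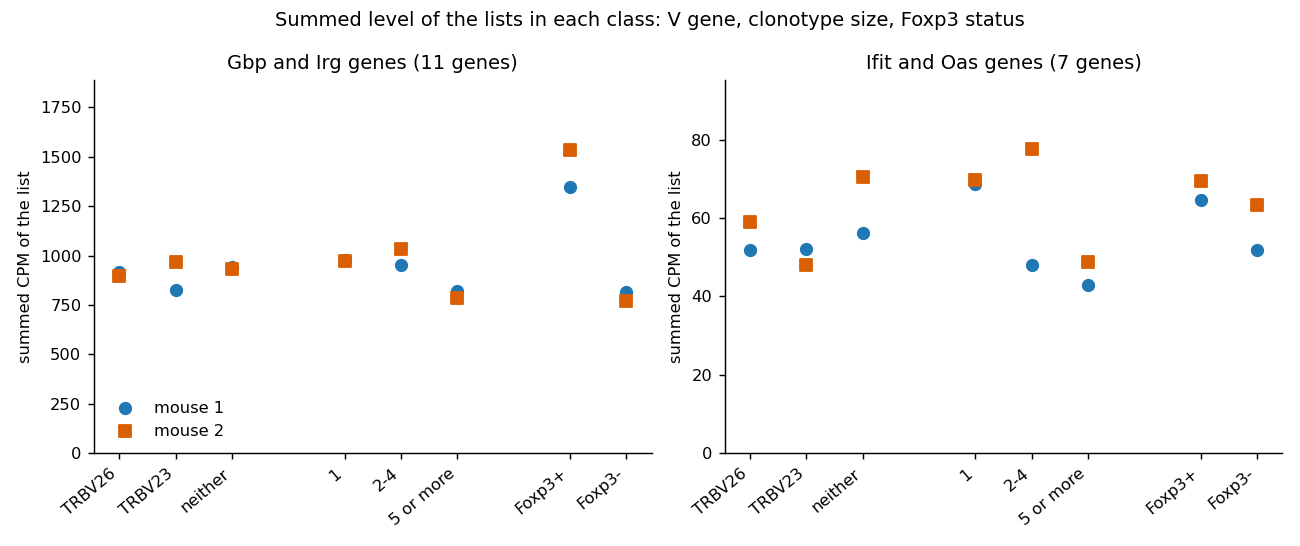
Summed CPM of the 11 Gbp and Irg genes (left) and of the 7 Ifit and Oas genes (right) is plotted for each V gene, clonotype size and Foxp3 class, with 1 symbol per mouse and axes starting at 0. Foxp3+ cells stand apart in the left panel, at 1349 and 1536 CPM, and the right panel shows 64.6 and 69.5 CPM against 51.8 and 63.3.

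Single cells were thinned to 2000 UMIs each to compare them at one depth, which left out 157 and 71 shallower cells. The Ifit, Oas and other antiviral genes together gave a mean of 4.55 and 4.82 UMIs per cell with a Fano factor (variance over mean, 1 for pure counting) of 4.47 and 5.24. Ifi27l2a alone made 55.6% to 68.3% of the summed CPM of these genes in every class, and without it the mean was 1.75 and 1.77 UMIs and the Fano factor 2.85 and 3.02. The Gbp and Irg genes gave a mean of 1.97 and 1.91 UMIs and a Fano factor of 2.63 and 2.62. Foxp3+ cells had a mean of 7.28 and 7.68 UMIs of the first list against 4.05 and 4.18 in Foxp3- cells, and 2.68 and 2.59 against 1.57 and 1.59 without Ifi27l2a. For the Gbp and Irg genes the means were 3.21 and 3.25 against 1.75 and 1.61. Cells with at least 10 UMIs of the first list were 27.0% of Foxp3+ cells in mouse 1 (exact Clopper-Pearson 95% interval 24.2 to 30.1) and 26.2% in mouse 2 (23.7 to 28.9). In Foxp3- cells they were 7.65% (6.92 to 8.42) and 8.65% (7.90 to 9.46), and these intervals cover counting error only.

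Both lists rose together from cell to cell, with Ifi27l2a kept in the first list. Ifi27l2a made 55.6% to 68.3% of that list's summed CPM, and the values of this paragraph were not computed without it. Cells with 0-1 UMIs of the first list held a mean of 1.52 and 1.40 Gbp and Irg UMIs, and those with at least 10 held 3.15 and 3.15. Over the same range the share of Foxp3+ cells went from 6.47% and 5.55% to 39.4% and 40.3%, and the share of cells in clonotypes of 5 or more from 47.1% and 53.0% to 21.9% and 18.5%. Cells with a UMI of C1qa, C1qb, C1qc, Csf1r or Adgre1 were 2.23% and 3.65% of the lowest class and 2.09% and 2.16% of the highest. The cells with at least 10 UMIs came from 510 clonotypes in mouse 1 and 625 in mouse 2, out of 622 and 742 cells. Among the clonotypes of 50 cells or more, 7 in mouse 1 and 10 in mouse 2, the summed CPM of the first list ranged from 950 to 2008 in mouse 1 and from 832 to 2240 in mouse 2. Their Gbp and Irg sums ranged from 564 to 816 and from 420 to 898 CPM.

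Receptors, signal carriers and ligands of the pathway were read from a list of genes outside the members. Ifng, the interferon γ gene, was at 31.8 and 30.9 CPM in Foxp3+ cells and at 161 and 140 in Foxp3- cells (-2.25, SE 0.07). It was at 212 and 229 CPM in clonotypes of 5 or more and at 81.3 and 52.2 in those of 1 cell (1.79, SE 0.14, edgeR adjusted p = 4.59e-05). In TRBV26 cells it was lower than in cells with neither (-0.44, SE 0.07). Summed over all their cells, large clonotypes held more Ifng transcript, with 21 members called lower and 5 higher, among them Irf1. Of all genes 13.5% were called lower and 14.0% higher there. With 1 cell per clonotype 5 members were called, all lower, beside 2.96% of all genes lower and 3.39% higher. Foxp3+ cells held less Ifng transcript, with 37 members called higher and 5 lower, beside 22.3% and 20.5% of all genes. Ifngr1, the ligand-binding receptor chain, was at 249 and 271 CPM in Foxp3+ cells against 95.7 and 119 (1.28, SE 0.06), and was lower in TRBV26 cells (-0.90, SE 0.05). Ifngr2, the signalling chain, was at 5.98 and 6.73 CPM in clonotypes of 1 cell and at 1.07 and 0.864 in those of 5 or more (-2.69, SE 0.24).

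Ifnar1, a chain of the type I receptor, rose in Foxp3+ cells (0.47, SE 0.07) and fell in clonotypes of 5 or more (-0.23, SE 0.06). Socs1, an inhibitor of this signalling, fell in clonotypes of 5 or more (-0.62, SE 0.07), rose in TRBV26 cells (0.28, SE 0.05) and was not called in Foxp3+ cells (-0.04, SE 0.06). Of the 14 receptor and signalling genes 8 were higher and 2 lower in Foxp3+ cells (22.3% and 20.5% of all genes), and 4 were higher and 7 lower in clonotypes of 5 or more (14.0% and 13.5% of all genes). Of 55 tested induced genes outside the members 27 were higher and 12 lower in Foxp3+ cells, and 9 higher and 21 lower in clonotypes of 5 or more, beside the same shares of all genes. The largest changes there were Gbp10, at 38.1 and 36.2 against 5.54 and 5.44 CPM in Foxp3+ cells (2.76, SE 0.12), and Ms4a4c, at 4.06 and 4.15 against 32.2 and 35.5 (-3.04, SE 0.14). In TRBV26 cells the chemokine gene Cxcl10 was higher (1.02, SE 0.12) and Socs3, a feedback inhibitor, lower (-0.96, SE 0.07). Ifitm3 fell in clonotypes of 5 or more (-1.48, SE 0.29). Of the type I and type III interferon genes listed, none passed the filter on low counts.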

How the data were processed

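Single-cell 5′ gene expression and T cell receptor libraries of 2 hosts were analysed. Per the submitters' processing notes, Cell Ranger 7.0.1 was used, and the genome builds mm10 and GRCm38 are named. The deposited matrices hold raw UMI counts per gene and barcode, and the receptor tables deposited hold counts of reads and UMIs for each contig. Doublet calls were not made here, but 708 and 702 cells with more than 1 TRB contig were left out. Cells of 1 mouse with the same TRBV, TRBJ and CDR3 bases of the β chain formed a clonotype. Counts were summed per mouse and class and tested with edgeR 4.0.16 (R 4.3.3), using TMM factors, the filterByExpr filter and the quasi-likelihood test with a block for the mouse. P-values were adjusted by Benjamini-Hochberg over every tested gene, at a threshold of 0.05. T cell receptor segment genes were left out of the tests, and so was Foxp3 in the comparison it defines. CPM are counts scaled to 1000000 UMIs of a sum, and log2 values per mouse had 1 CPM added. The sums of 1 mouse come from the same animal, and their deviations from the class means correlated at 0.28 to 0.47 across 11719 genes for every pair of classes, so the mouse is a true block. The labels do not say whether donor cells were pooled before transfer, so the spread between donors cannot be told apart from that between hosts. With the block, the p-values rest on how class differences varied between these 2 hosts and on a spread shared over genes. In the Foxp3 fit over all cells the prior degrees of freedom were infinite, so its p-values rest on the shared spread alone. The p-values do not reach beyond these hosts. Alternatives were DESeq2 1.42.0, size factors by its method, no block, no filter, thinning, other cell filters and subsets of cells. The members and gene lists were chosen with earlier results of these data known. Members named in each comparison of 2 classes were the 8 largest increases and 8 largest decreases among those called, that had 1 sign in both mice and a class with 20 CPM or more, plus 18 fixed genes. For the interaction they were the 3 with the largest difference, and for the pathway 5 fixed genes and the 3 largest changes among those called. One of these fixed genes is not reported here. Further members are named as parts of a count or list, with their values known. The fits were tested on simulated data in which the changed genes were known. Promoter windows are those of RefSeq, and coordinates of gene models those of GENCODE M21, both on GRCm38.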

Additional observations from a re-analysis of the deposited data

Results flagged for a closer look

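The difference between TRBV26 cells and cells with neither V gene depended on clonotype size, by the test of the interaction itself. It called 18 members, all with a more positive difference in clonotypes of 5 or more than in clonotypes of 1 cell. Of all tested genes 6.26% were called in that direction and 5.37% in the other. Of the 18 called, the 3 with the largest interaction and at least 20 CPM in 1 class were Iigp1 (1.41 on the log2 scale), Igtp (1.31) and Irgm2 (0.97). Usp18 had a larger interaction (1.51) but was not called (edgeR adjusted p = 0.0583). Foxp3+ cells were 37.7% and 36.1% of clonotypes of 1 cell with neither V gene and 9.10% and 7.49% of those of 5 or more. In cells without a Foxp3 UMI 7 members were called, beside 4.9% of all genes in the same direction and 4.69% in the other. TRBV26 cells in clonotypes of 5 or more came from only 35 and 23 clonotypes. The interaction was not fitted with 1 cell per clonotype.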

How the results depend on the processing

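Numbers here are called members unless said otherwise. Shares of all tested genes are given above for some of these fits only, and the other counts cannot be set against a background. The mouse is a true pairing, and without the replicate block TRBV26 against neither gave 4, TRBV23 against neither 2, clonotypes of 5 or more 15, clonotypes of 2-4 cells 0 and the interaction 11. DESeq2 gave 5, 5, 17 and 0 in the first 4 of these. Thinning gave 17 and 1 for the clonotype sizes, the V class as a covariate 14 and 0. For clonotypes of 2-4 cells no filter gave 5, cells with neither V gene 7 and leaving out the 5 largest clonotypes 4. TRBV26 against neither gave 29 with 1 cell per clonotype, 30 in clonotypes of 1 cell and 21 in Foxp3- cells. TRBV23 gave 24 and 23 in the first 2 of these. Settings chosen after seeing the data were clonotypes of 1 cell without Foxp3 UMIs (25 for TRBV26, 21 for TRBV23), Foxp3+ cells (0 and 0), the interaction in Foxp3- cells (7), 1 cell per clonotype for the sizes (5 for 5 or more, 0 for 2-4) and removal of shared barcodes, which left all 7 counts as they were. Counts for Foxp3 stayed within 1.5 times of 42. Of 2094 values of named genes under alternatives, 25 turned direction, and the cause was not tested. Turns on leaving out a mouse are not among the 25. For TRBV26 these were, with 1 cell per clonotype, Ifit1 (-0.54) and Iigp1 (-0.46), in clonotypes of 1 cell Ifit1 (-0.62) and Iigp1 (-0.54), in those without Foxp3 Slfn5 (-0.14), Slfn1 (-0.22) and Ifit1 (-0.70), and in Foxp3+ cells Slfn5 (-0.23), Slfn1 (-0.0281), Ifi27l2a (-0.0151), Ifih1 (-0.32) and Gbp7 (0.0458). For TRBV23 they were Iigp1 with 1 cell per clonotype (-0.29) and in clonotypes of 1 cell (-0.33), and Igtp in Foxp3- cells (0.0367). In clonotypes of 1 cell without Foxp3 they were Slfn5 (-0.0329), Slfn1 (-0.17), Gbp3 (0.27) and Irf1 (0.30), and in Foxp3+ cells Slfn5 (-0.11), Ifi27l2a (-0.18), Irgm1 (-0.0024) and Ifit3 (0.27). By size, Gbp7 turned among cells with neither V gene (-0.14) and Bst2 with 1 cell per clonotype (0.0056). Per-cell Fano factors rise with depth, and for the antiviral list were 6.00 and 7.20 at 3000 UMIs. Depth limits the Ifit and Oas genes, with as few as 34 UMIs per mouse for Oas2. Leaving out a mouse leaves no residual degrees of freedom, so values have no test. Without mouse 1, 128 values of named genes moved by less than the spread between the mice and 11 by more. Without mouse 2 these numbers were 124 and 15. With 2 mice, leaving out 1 moves a mean by less than the mice differ, so these counts were largely fixed in advance. Direction can turn where the mice differed in sign. For Foxp3, Ifit3 was at 4.48 against 4.43 CPM in mouse 1 and at 6.12 against 7.35 in mouse 2.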
